A study of Mus musculus with 14 samples.

Results

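Small cell lung tumours from mice that lack Rb1 and Trp53 did not all carry neuronal genes at the same level, and the 7 such tumours of a 14-tumour RNA-seq series are described here as a neuronal-high and a neuronal-low set. Each library was scored by 29 neuronal marker genes: for every marker, log2(CPM + 1) minus that gene's mean over the 14 libraries, averaged over the markers, where CPM is a gene's count scaled to a common library size. The members were chosen by these measured scores: the 4 highest made the neuronal-high set (tumours T1, T2, T3 and T5) and the 3 lowest the neuronal-low set (T4, T6 and T7). All 7 were primary tumours of the genotype labelled Rb1/Trp53 (RP), and the other 7 tumours of the series, labelled Rb1/Trp53/Crebbp (RPC), lack the acetyltransferase gene Crebbp as well. The labels name no Cre driver, strain, age or sex, and do not say that each tumour came from its own mouse. Tumours may thus share a mouse, and the libraries may not be independent replicates. The spread between libraries may also be in part technical.

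Small cell lung cancer is a neuroendocrine tumour: its cells carry secretory granules and many of the genes of neurons. Within it, the bHLH transcription factor Neurod1 marks a state with more neuronal genes. Rest and the Notch pathway hold neuronal genes down, and Myc family genes are recurrently amplified in this cancer.

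The scores of the neuronal-high set were 0.36 in T1, -0.02 in T2, 0.14 in T3 and 0.03 in T5. Those of the neuronal-low set were -0.42 in T4, -0.93 in T6 and -0.70 in T7. T2 was the lowest of the neuronal-high set and T4 the highest of the neuronal-low set, at -0.02 and -0.42. Because the libraries were divided by their own expression, everything that follows on the 4 against the 3 is a description, with fold changes and counts but no test of a hypothesis.

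Sequencing depth went with the division. The neuronal-high libraries held 13689993, 10965714, 13322014 and 13406835 counts in genes (T1, T2, T3, T5), and the neuronal-low libraries 23678648, 21787544 and 15977149 (T4, T6, T7). The sets did not overlap, the difference in mean log2 depth was -0.66, and the exact two-sided permutation p was 0.0571, the smallest that 4 against 3 allows (0.286 adjusted over 5 library measures). Gene counts were therefore also compared after every library was thinned to the shallowest, and the part of depth in the differences beyond that was not tested. All 7 libraries held Xist at 808 CPM or more and Ddx3y at 0.14 CPM or less.

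**Figure D1:**
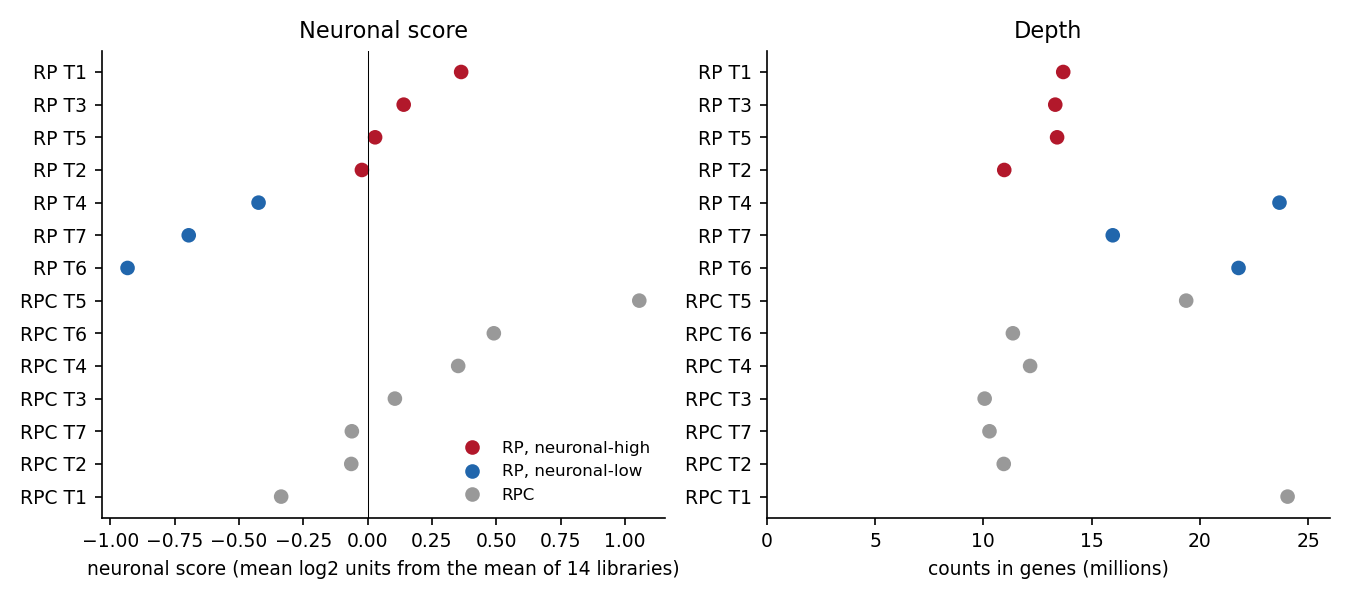
Neuronal score (left, in mean log2 units from the mean of 14 libraries) and counts in genes (right) of each library, with neuronal-high RP in red, neuronal-low RP in blue and RPC in grey. The 3 neuronal-low libraries have the lowest scores of the series and are each deeper than every neuronal-high library.

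The markers of the score are given as values only. Of the 29, 25 passed the filter on low counts, and 21 of these had a positive log2 fold change, with a median of 1.01. In T1, T2, T3 and T5, 16, 16, 13 and 12 markers stood above their own mean over 14 libraries, against 9, 7 and 6 in T4, T6 and T7. Myt1l, a repressor of non-neuronal genes, was at 26.6, 20.2, 50.4 and 50.5 CPM in T1, T2, T3 and T5 and at 0.39, 8.71 and 2.81 CPM in T4, T6 and T7. The neuronal RNA-binding gene Elavl3 was at 242, 294, 535 and 263 CPM against 142, 131 and 217 CPM. Neurod1 itself did not order the tumours: it was at 10.35, 45.9, 21.3 and 0.29 CPM in the neuronal-high libraries and at 19.3, 0.05 and 0.06 CPM in the neuronal-low ones. T4, with the highest score of the neuronal-low set, thus held more Neurod1 than T1 and T5.

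Insm1, a zinc-finger factor of neuroendocrine cells, was at 332, 817, 742 and 679 CPM in T1, T2, T3 and T5 and at 358, 382 and 523 CPM in T4, T6 and T7, so the sets overlapped (log2 fold change 0.61, SE 0.34). Of the 25 tested transcription factors of the neuroendocrine subtypes, 17 had positive fold changes, with a median of 0.36. The median over all 15240 tested genes was 0.03, and 52.5% of them were positive. The level of the factor list was taken as the mean log2 difference from the RP mean. It was 0.40, -0.03, 0.28 and -0.07 in T1, T2, T3 and T5 and 0.16, -0.58 and -0.17 in T4, T6 and T7. T4 thus lay above T2 and T5, so the list as a whole overlapped. Without overlap, 5 of the 25 factors were higher and 0 lower, against 3.75% and 3.66% of all tested genes. Nkx2-1, the lung lineage factor, was one of the 5, at 537, 563, 754 and 670 CPM against 298, 475 and 410 CPM (0.68, SE 0.26). Prox1, a homeobox factor of neuroendocrine progenitors, was at 323, 219, 217 and 214 CPM against 132, 86.9 and 178 CPM (0.88, SE 0.29). Sox11, a factor of immature neurons, was at 221, 237, 399 and 214 CPM against 144, 190 and 172 CPM (0.67, SE 0.28), and the remaining 2 were Insm2 and Tcf12.

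Across the whole table, 571 genes outside the score were higher without overlap in the neuronal-high set (3.75% of 15240) and 558 were lower (3.66%). With edgeR's quasi-likelihood fit, 0 genes passed an adjusted p of 0.05 and 1031 had an unadjusted p under 0.05 (6.77%). limma-voom called 0, and DESeq2 called 123 genes (0.807%), 80 of them higher (0.525%) and 43 lower (0.282%) in the neuronal-high set. Nothing is read from these shares, since the division used the same libraries, and the genes below are those that ranked first by the edgeR fit.

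Genes of the neuronal cytoskeleton and of RNA binding in neurons are close in kind to the markers that made the division, so their direction is not independent of it. Of 41 tested members outside the score, 36 were higher on average in the neuronal-high set, with a median log2 fold change of 0.65, and 9 were higher without overlap and 0 lower. The mean level of the list, as the log2 difference from its mean over the RP libraries, was 0.75, 0.00, 0.35 and 0.17 in T1, T2, T3 and T5 and -0.22, -0.55 and -0.49 in T4, T6 and T7. Dbn1 encodes drebrin, which binds actin in dendritic spines. It was at 102, 46.5, 169.9 and 64.6 CPM in T1, T2, T3 and T5 and at 13.97, 4.88 and 7.88 CPM in T4, T6 and T7 (3.42, SE 0.57). Kif1a, the kinesin that carries synaptic vesicle precursors along axons, was at 416, 313, 242 and 259 CPM against 130.5, 97.8 and 136 CPM (1.34, SE 0.26). The lowest neuronal-high library was above the highest neuronal-low one for both genes, but this was a condition for naming them by rank. Tubb2a, a neuronal beta-tubulin, was at 120.2, 25.9, 43.8 and 17.6 CPM against 14.6, 10.1 and 11 CPM (2.11), with T1 far above the rest. Crmp1, which acts in growth cone collapse, was at 367, 181, 509 and 220 CPM against 127, 120 and 159 CPM (1.24). Uchl1, the neuronal ubiquitin hydrolase used as a neuroendocrine stain, was at 694, 487, 1054 and 403 CPM against 351, 330.1 and 314 CPM (0.99). The doublecortin-like kinase gene Dclk1 was at 15.1, 15.03, 19.2 and 28.4 CPM against 7.85, 4.24 and 8.31 CPM (1.52).

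Of 35 tested synaptic vesicle genes, 21 had positive fold changes (median 0.10). Without overlap, 0 were higher and 1 was lower (2.86%, near the 3.66% of all tested genes). That gene was Snap25, a core protein of vesicle fusion, at 83.9, 180.5, 62.5 and 304 CPM in T1, T2, T3 and T5 and at 443.5, 444.5 and 367 CPM in T4, T6 and T7 (-1.41, SE 0.49). The neuronal-low tumours therefore held more of this neuronal gene than any neuronal-high tumour. Among 29 tested granin, neuropeptide and amine synthesis genes 8 were positive, with a median of -0.34 and no gene of the list without overlap. Chga, a granin of the secretory granule, was at 596, 750, 263 and 279 CPM against 1022, 409 and 370 CPM, and Calca, which encodes calcitonin and CGRP, ranged from 59.7 CPM in T3 to 5130 CPM in T5. Of 39 tested ion channel and receptor genes 22 were positive (median 0.11, or -0.03 with limma-voom and without T5). Without overlap, 1 was higher (2.56%) and 2 were lower (5.13%), against 3.75% and 3.66% of all tested genes. Cacna1b, the N-type calcium channel, was higher without overlap, at 88.8, 60.2, 62.5 and 66.0 CPM against 40.8, 37.1 and 35.7 CPM (0.87). Kcnip1, a subunit of A-type potassium channels, was lower, at 8.46, 2.29, 0.50 and 14.3 CPM against 51.9, 40.7 and 17.1 CPM (-2.52).

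Guidance and adhesion genes divided between the sets. Of 49 tested, 30 were positive (median 0.32, or 0.06 without T1). Without overlap, 4 were higher (8.16%) and 3 lower (6.12%), against 3.75% and 3.66% of all tested genes. Chl1, an L1-family adhesion molecule of growing axons, was at 193, 227, 110.5 and 49.6 CPM in the neuronal-high libraries and at 26.4, 19.5 and 24.02 CPM in the neuronal-low ones (2.63, SE 0.49). Plxna2, a semaphorin receptor, was at 255, 268, 274 and 137 CPM against 70.9, 89.8 and 97.0 CPM (1.44, SE 0.29). The semaphorin ligands Sema5a and Sema3f lay on the other side. Sema5a was at 6.95, 9.23, 2.90 and 17.2 CPM against 45.3, 49.9 and 54.8 CPM (-2.46, SE 0.51), and Sema3f at 39.1, 45.2, 23.0 and 45.4 CPM against 96.5, 132 and 74.8 CPM (-1.41, SE 0.31). Sema6d, another semaphorin gene, was higher without overlap (1.24), so semaphorin genes did not share a direction. B3gat1, which makes the HNK-1 (CD57) glycan epitope of neural and neuroendocrine cells, was at 82.9, 65.3, 59.2 and 58.2 CPM against 22.02, 28.5 and 24.3 CPM (1.41, SE 0.24). Fam131b was at 56.9, 59.9, 39.1 and 60.3 CPM against 12.2, 13.4 and 18.8 CPM (1.87, SE 0.28).

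Dll3, an inhibitory Notch ligand that is a drug target in small cell lung cancer, was the Notch pathway gene highest in rank. It was at 30.5, 69.1, 99.4 and 72.6 CPM in T1, T2, T3 and T5 and at 14.3, 17.8 and 16.2 CPM in T4, T6 and T7 (2.08, SE 0.40). T1 was its lowest neuronal-high library, and lying above every neuronal-low one was a condition for naming Dll3 by rank. With a term for markers of other cell types the Dll3 difference was 1.35. Of 29 tested Notch pathway genes 9 were positive (median -0.14). Without overlap, 1 was higher (3.45%) and 1 lower (3.45%), near the 3.75% and 3.66% of all tested genes. The higher gene was Dll3. The lower was Heyl, a Notch effector, at 5.57, 6.59, 6.47 and 8.58 CPM against 15.6, 20.3 and 15.03 CPM (-1.32, SE 0.34). The fold changes of Notch1, the effector Hes1 and the repressor Rest were -0.26, -0.31 and -0.14, and turned sign under at least 1 alternative for Notch1 and Rest.

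Promoters of 3 of the higher genes are shown because each holds an E-box, the short motif bound by bHLH factors, of the CAGCTG form. The sequences are from RefSeq (GRCm38.p6), run 5′ to 3′ from 250 bases before the start of transcription to 50 after it, and carry the CAGCTG hexamer in capitals.
Dll3 promoter, chr7:28301736-28302035, minus strand: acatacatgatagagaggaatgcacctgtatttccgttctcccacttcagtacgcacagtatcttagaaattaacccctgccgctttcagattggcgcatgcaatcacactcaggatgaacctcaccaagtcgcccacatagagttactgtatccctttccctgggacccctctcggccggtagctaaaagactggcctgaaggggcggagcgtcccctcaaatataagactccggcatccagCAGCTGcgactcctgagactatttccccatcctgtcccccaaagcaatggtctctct
B3gat1 promoter, chr9:26751312-26751611, plus strand: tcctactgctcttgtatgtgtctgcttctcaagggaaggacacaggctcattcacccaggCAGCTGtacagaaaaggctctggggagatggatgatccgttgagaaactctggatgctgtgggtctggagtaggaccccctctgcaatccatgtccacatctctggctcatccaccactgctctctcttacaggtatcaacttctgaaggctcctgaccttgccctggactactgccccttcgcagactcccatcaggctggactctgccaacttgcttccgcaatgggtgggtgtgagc
Kif1a promoter, chr1:93101825-93102124, minus strand: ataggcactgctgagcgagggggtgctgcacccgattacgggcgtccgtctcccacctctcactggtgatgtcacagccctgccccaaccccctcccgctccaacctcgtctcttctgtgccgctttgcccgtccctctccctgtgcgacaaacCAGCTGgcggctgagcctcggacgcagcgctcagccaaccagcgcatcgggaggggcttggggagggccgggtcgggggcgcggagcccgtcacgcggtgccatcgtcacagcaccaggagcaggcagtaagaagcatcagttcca
CAGCTG reads the same on both strands. Of the 12 higher genes named by rank, 10 matched the table with 12 promoters, and 4 of these held it (33.3%, from 3 genes, since both starts of Kif1a count), against 16.3% of all 32851 promoters of this length and 16.1% of those of tested genes. Over the 571 genes higher without overlap the share was 15.1%, and over the 558 lower it was 18.3%, so the wider sets lay near the share of all promoters. The CAGATG form preferred by Neurod1, searched on both strands as CAGATG and CATCTG, was in 8.86% of the promoters of genes higher without overlap, in 17.7% of those lower, in 12.2% of those of tested genes and in 17.2% of all promoters.

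**Figure D2:**
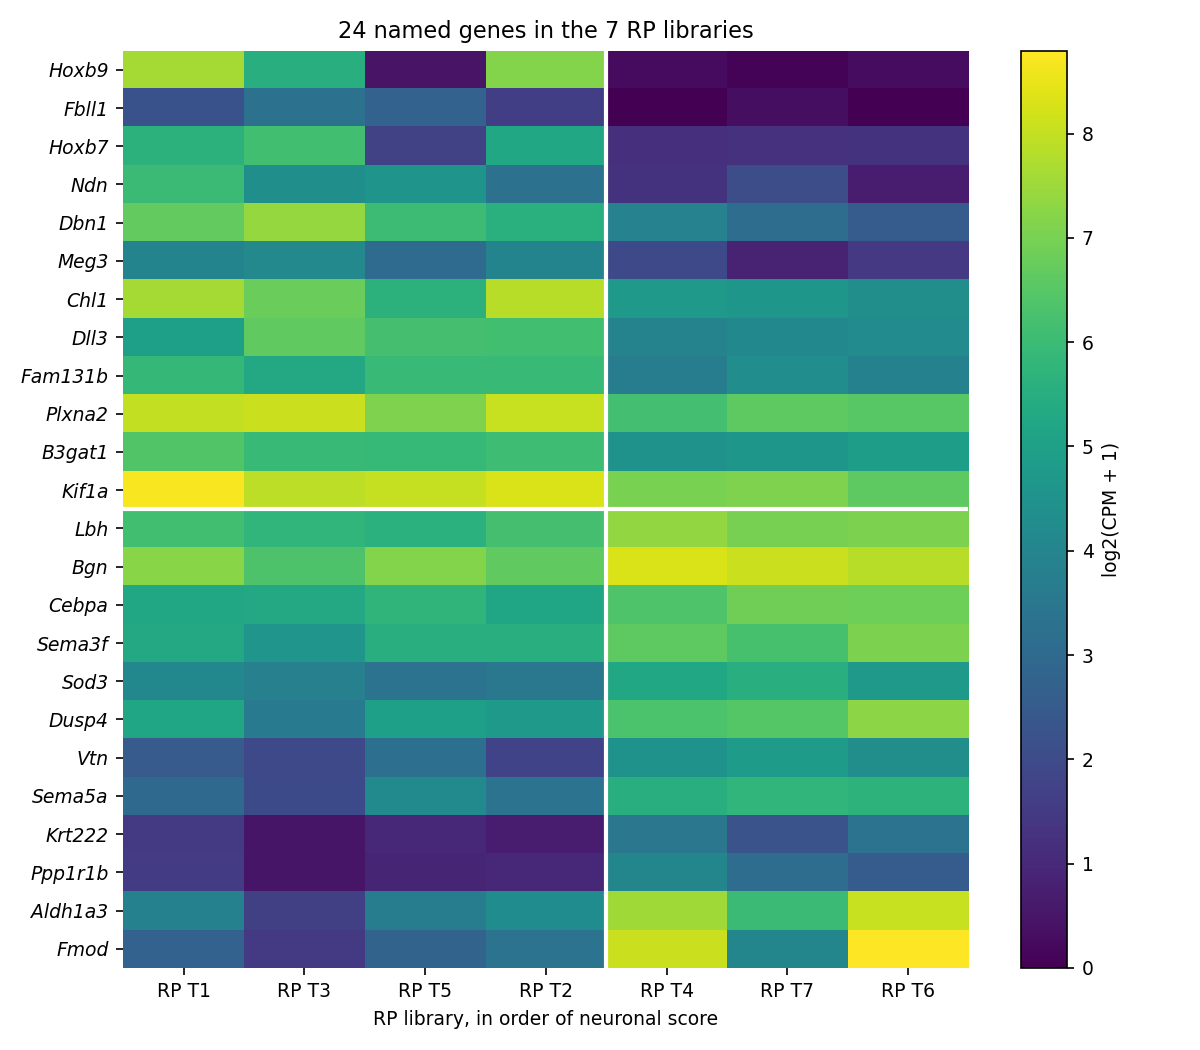
Heat map of log2(CPM + 1) for the 24 genes named by rank (rows) in the 7 RP libraries (columns, in order of neuronal score). The upper 12 genes are higher in the 4 neuronal-high libraries and the lower 12 in the 3 neuronal-low libraries. T5 stands with the neuronal-low libraries for Hoxb7 and Hoxb9.

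Hoxb genes, which set position along the body axis in the embryo, were present in some tumours and nearly absent in others. Hoxb9 was at 193, 144, 45.0 and 0.36 CPM in T1, T2, T3 and T5 and at 0.20, 0.23 and 0.06 CPM in T4, T6 and T7. Hoxb7 was at 49.2, 37.9, 69.4 and 2.25 CPM against 1.30, 1.41 and 1.41 CPM. For both genes T5 lay only just above the neuronal-low libraries. Their neighbours were looked at after these values were seen. Hoxb8 was at 254, 122, 321 and 3.34 CPM against 2.64, 1.37 and 4.34 CPM, so that T5 lay within the neuronal-low range. Hoxb6 was at 114, 129.6, 297 and 9.16 CPM against 10.2, 4.02 and 7.94 CPM. Towards the other end of the cluster the pattern changed: Hoxb2 was at 74.7, 110.5, 139 and 86.4 CPM against 13.1, 196 and 4.34 CPM, with T6 the highest of all. Without T5, edgeR called 3 genes in the whole table, namely Hoxb7, Hoxb8 and Hoxb9, with log2 fold changes of 5.25, 6.40 and 9.49. T5 was the 1 neuronal-high library low in these genes, so the calls depend on leaving it out and are no test.

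Imprinted transcripts from separate clusters ranked among the higher genes as well. Meg3, a maternally expressed long non-coding RNA, was at 14.7, 14.7, 16.7 and 7.49 CPM in T1, T2, T3 and T5 and at 2.80, 1.78 and 0.79 CPM in T4, T6 and T7 (2.88, SE 0.57). Rian, transcribed from the same imprinted locus, was at 7.74, 6.504, 15.02 and 5.38 CPM against 1.85, 1.69 and 0.43 CPM (2.69, SE 0.67). Ndn, which encodes the growth suppressor necdin of postmitotic neurons and is paternally expressed, was at 63.2, 8.70, 19.6 and 22.4 CPM against 1.42, 0.64 and 3.18 CPM (4.04, SE 0.83). All 3 transcripts were low in each neuronal-low tumour. An imprinted list was drawn up after these values were seen, so its counts are not independent of them. Of its 13 tested genes 10 were positive, with a median of 1.12. Without overlap, 4 were higher (30.8%, against 3.75% of all tested genes). The list's summed CPM overlapped, at 704 to 1074 in the neuronal-high set and 540 to 1341 in the neuronal-low set, with T4 highest. The last gene of the 12 was Fbll1, a fibrillarin-like gene, at 3.62, 2.11, 8.88 and 5.74 CPM against 0, 0 and 0.24 CPM.

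Genes higher in the neuronal-low tumours came from several classes. Fmod, which encodes the matrix proteoglycan fibromodulin, was at 272, 443 and 15.5 CPM in T4, T6 and T7 and at 5.79, 9.14, 1.83 and 5.89 CPM in T1, T2, T3 and T5 (-5.44, SE 0.98). T7 lay near the neuronal-high libraries, and without it edgeR called 2 genes, Fmod (-6.00) and Thbs4 (4.74), an extracellular matrix gene. Thbs4 was at 102, 143, 127 and 154 CPM against 4.62, 5.11 and 70.4 CPM. T7 was thus the neuronal-low library nearest the neuronal-high set for Fmod and Thbs4, so these calls depend on leaving it out and are no test. Aldh1a3, a retinoic acid synthesis enzyme, was at 184, 265 and 62.6 CPM in the neuronal-low set against 13.5, 18.3, 2.16 and 12 CPM (-3.91, SE 0.69). Dusp4, a phosphatase induced by and acting on MAP kinases, was at 77.4, 152 and 87.3 CPM against 35.3, 25.6, 11.1 and 30.1 CPM (-2.06, SE 0.40). Cebpa, a factor of lung epithelial and myeloid cells, was at 82.7, 114 and 117 CPM against 37.8, 35.9, 38.6 and 52.9 CPM (-1.34, SE 0.24). Lbh, a cofactor of Wnt-dependent progenitors, was at 163, 132 and 125 CPM against 69.6, 71.8, 53.7 and 47.8 CPM (-1.21, SE 0.22). Ppp1r1b, the dopamine-regulated phosphatase inhibitor DARPP-32, was at 15.6, 4.84 and 7.82 CPM against 1.95, 0.97, 0.41 and 0.87 CPM (-3.16, SE 0.65). Krt222, a keratin-like gene, was at 10.3, 9.26 and 3.79 CPM against 1.81, 0.62, 0.41 and 1.02 CPM (-3.01, SE 0.64).

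The matrix and secreted genes Bgn, Sod3 and Vtn made up the rest of the 12. Bgn (biglycan) was at 316, 229 and 270.0 CPM in the neuronal-low set and at 148.5, 99.3, 80.8 and 142 CPM in the neuronal-high set (-1.21, SE 0.26). Sod3, an extracellular superoxide dismutase, differed by -1.58 (SE 0.32) and Vtn (vitronectin) by -2.32 (SE 0.49), both without overlap. Of 22 tested mesenchymal genes 5 were positive (median -0.52), with Fn1, Sparc and Tgfbr2 lower and Zeb2 higher in the neuronal-high set without overlap. These were 13.6% lower and 4.55% higher, against 3.66% and 3.75% of all tested genes. Sparc, a matrix protein of fibroblasts and vessels, was at 551, 327 and 409 CPM in T4, T6 and T7 against 205, 169.8, 190.5 and 281 CPM in T1, T2, T3 and T5 (-1.02).

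Markers of other cells of the lung were mostly lower on average in the neuronal-high set, beside these genes. Their part in the differences was not tested beyond a fit with a term for them, and in bulk tumour RNA fewer cells of a type and less RNA per cell cannot be told apart. Of 11 tested macrophage and monocyte markers 9 were lower on average (median -0.61) and 5 of them without overlap (45.5%, against 3.66% of all tested genes). Their summed levels were 575 to 1003 CPM in the neuronal-high set and 918 to 1555 CPM in the neuronal-low set. Fibroblast markers were lower for 8 of 10 (median -0.64) and summed to 276 to 632 CPM against 564 to 886 CPM. Endothelial markers were lower for 11 of 12 (median -0.73), yet summed to 636 to 2472 CPM against 849 to 1139 CPM, because Vwf, which alone was positive, made up most of the sum, at 2252, 1183, 495 and 1685 CPM against 570.0, 963 and 672 CPM. T and NK cell markers were lower for all 9 tested (median -1.78) and summed to 10.5 to 28.8 CPM against 20.3 to 90.0 CPM. T7 was at 90.0 CPM, while T4 and T6, at 27.8 and 20.3 CPM, lay within the neuronal-high range. B and plasma cell markers were lower for all 7 (median -2.08), but this median was 0.24 without T7. They summed to 248 CPM in T7 and to 117 and 57.6 CPM in T4 and T6. The neuronal-high libraries held 27.7 to 88.0 CPM of them. Alveolar type 2 markers were lower for all 9 (median -0.98). Both medians were positive in the fit with a term for non-tumour markers. That term was built in part from the alveolar type 2 markers themselves, so it cannot decide for them. Alveolar type 2 markers summed to 192 to 1300.4 CPM against 642 to 1851 CPM. In these 6 lists, 0 markers were at 0 in all RP libraries. Lists of 3 further cell types had positive medians: cardiac and skeletal muscle (7 of 7 tested genes positive, 1.89), mesothelium (4 of 5, 0.49) and hepatocytes (1 tested gene, 0.44), with no gene of the 3 lists without overlap. The muscle markers summed to 40.0, 5.71, 129 and 5.89 CPM in T1, T2, T3 and T5. In T4, T6 and T7 they summed to 8.17, 6.98 and 16.7 CPM, so T2 and T5 were the lowest.

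**Figure D3:**
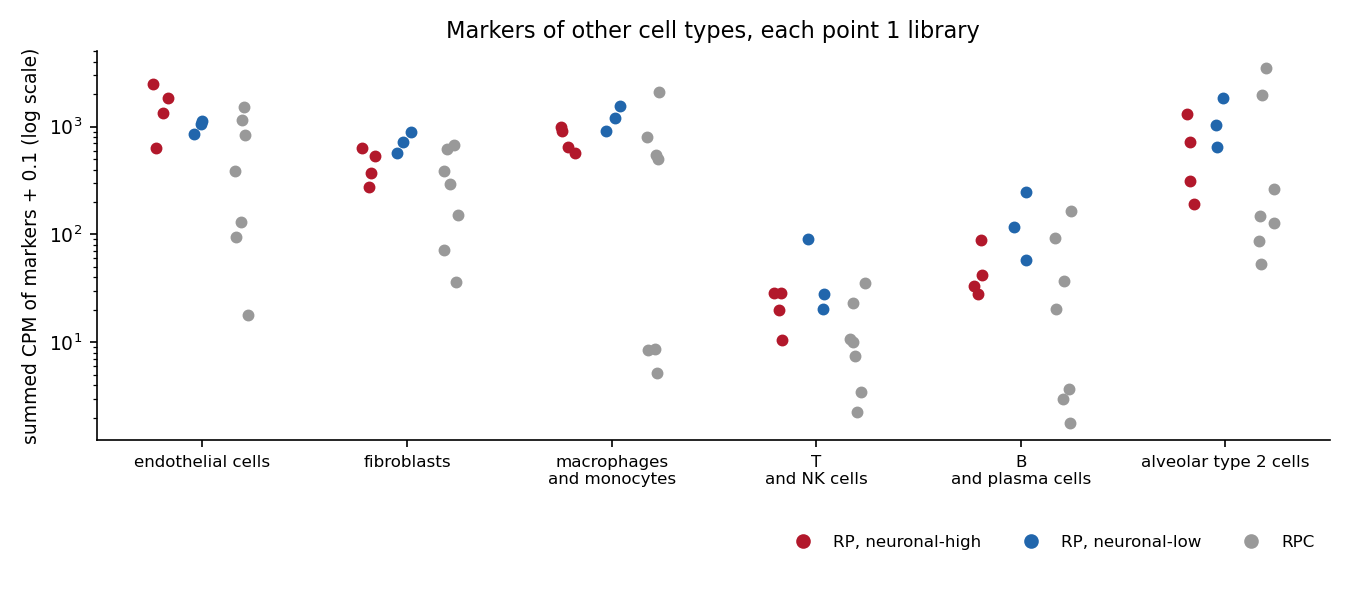
Summed CPM of markers of 6 other cell types in each library (log scale), with neuronal-high RP in red, neuronal-low RP in blue and RPC in grey. The RP sets overlap for each cell type, and RPC tumours 3, 5 and 6 have macrophage markers at 5.1 to 8.6 CPM, below the RP minimum of 575 CPM.

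**Figure D4:**
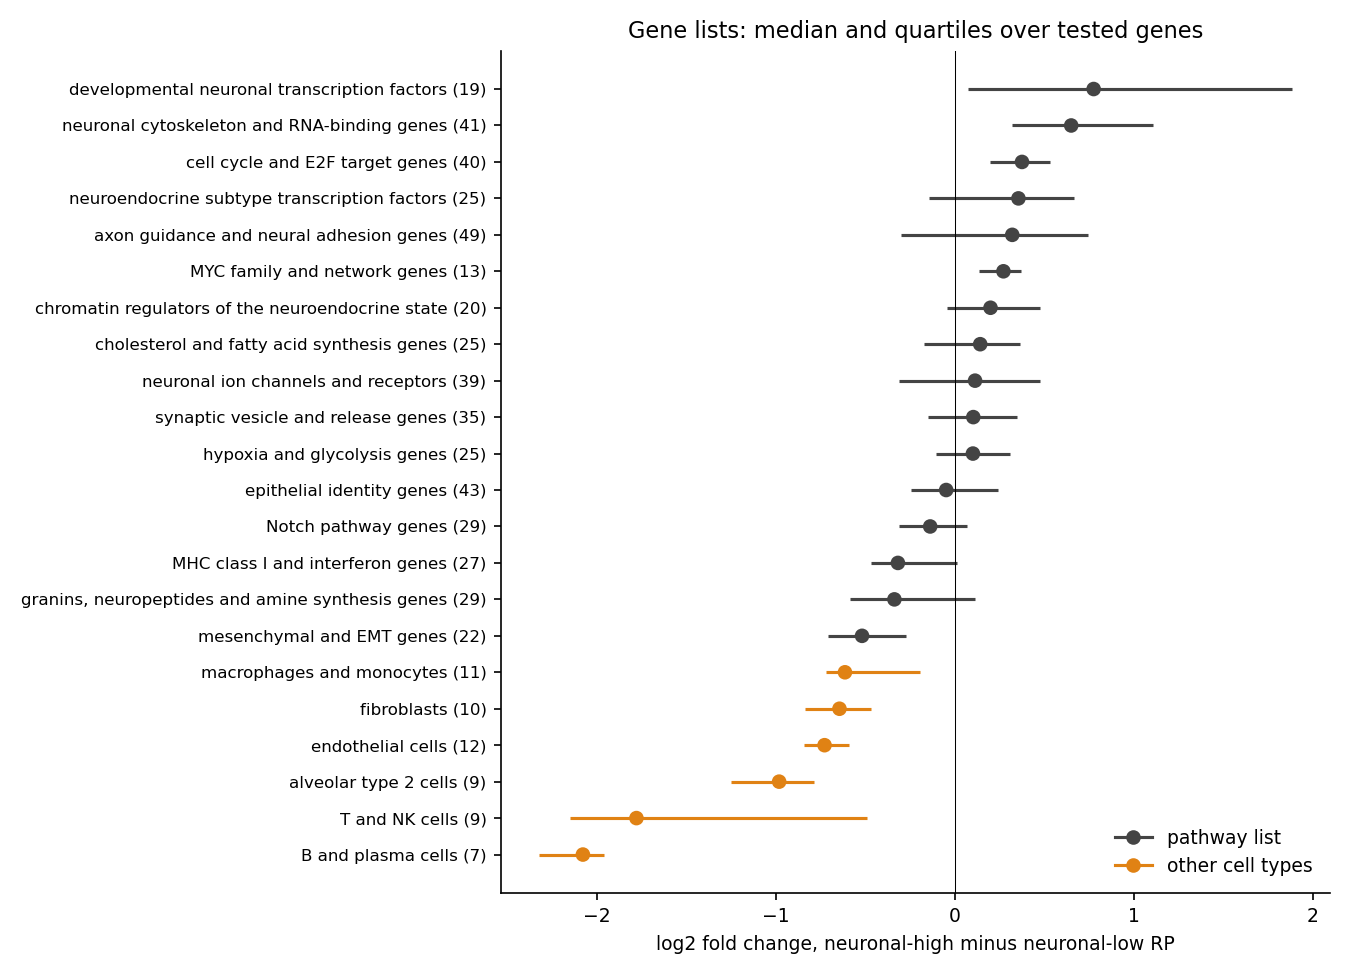
Median log2 fold change of neuronal-high against neuronal-low RP libraries for the pathway lists and the lists of 6 other cell types (points, with lines from the lower to the upper quartile of genes and the number of tested genes in brackets). Neuronal cytoskeleton genes (0.65) lie above 0, and the medians of the 6 cell type lists drawn (orange) below it.

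Proliferation genes were slightly higher on average in the neuronal-high set, but the libraries overlapped. Of 40 tested cell cycle and E2F target genes 38 had positive fold changes, with a median of 0.38 (0.19 without T3 and 0.17 with the non-tumour term). Without overlap, 2 were higher (5.0%, near the 3.75% of all tested genes). The list's mean level was -0.13, 0.08, 0.63 and 0.03 in T1, T2, T3 and T5 and -0.42, -0.26 and 0.08 in T4, T6 and T7. Cdk1, the mitotic kinase, was at 201, 183, 359 and 156 CPM in T1, T2, T3 and T5 and at 147, 122 and 141 CPM in T4, T6 and T7. T3 was the highest for it. The fold change of Mki67 was 0.20. Major histocompatibility class I and interferon genes were positive for 8 of 27 (median -0.32), and this median was positive without T7 (0.02) and with the non-tumour term (0.37). Epithelial identity genes differed little, with 19 of 43 positive and a median of -0.05 that turned positive without T2, T5 or T6; Cdh1 and Epcam had fold changes of 0.01 and 0.00.

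The MYC family set single tumours apart within the neuronal-high set. Myc was at 12.7, 12.4, 654 and 13.3 CPM in T1, T2, T3 and T5 and at 18.9, 17.8 and 22.7 CPM in T4, T6 and T7, so that T3 alone was high and the other neuronal-high libraries were below every neuronal-low one. Mycn was at 6.15, 12.2, 34.1 and 522 CPM against 6.71, 7.48 and 10.6 CPM, with T5 alone high. Mycl1, the family member common in this tumour model, was at 276, 12.6, 87.5 and 155 CPM against 296, 302 and 316 CPM (-1.203, SE 0.73). T2 was lowest in Mycl1 and high in neither of the others, and the 3 neuronal-low tumours shared one narrow range for each gene. T2 also held the least Nfib, a factor that is often gained in metastatic tumours of this model, at 53.9 CPM against 215 to 240 CPM in the other neuronal-high libraries and 151 to 184 CPM in the neuronal-low ones. Mean fold changes of Myc (3.14) and Mycn (4.13) thus rest on 1 library each and are -0.64 without T3 for Myc and 1.10 without T5 for Mycn. Rb1, Trp53 and Crebbp had fold changes of -0.30, -0.35 and 0.22 between the sets.

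**Figure D5:**
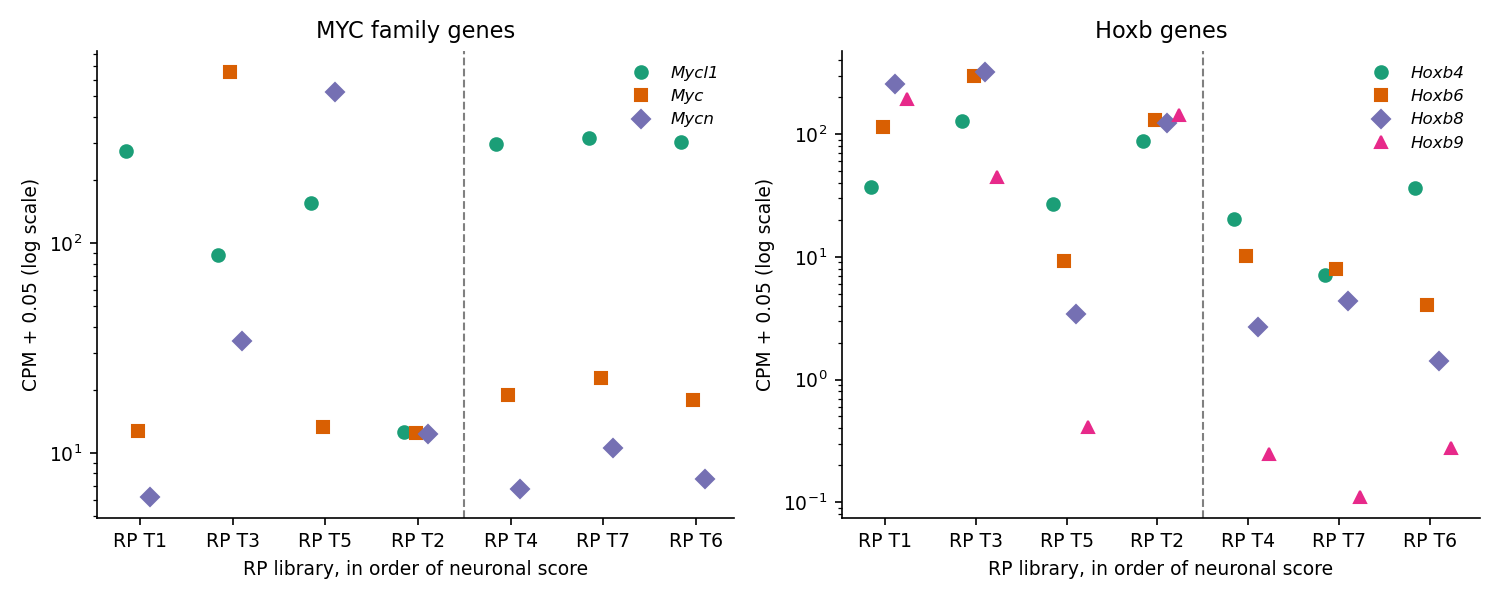
CPM + 0.05 (log scale) of 3 MYC family genes (left) and 4 Hoxb genes (right) in the 7 RP libraries, in order of neuronal score, with a dashed line between the sets. Myc is high in T3 alone and Mycn in T5 alone, and T5 lies with the neuronal-low libraries for Hoxb6, Hoxb8 and Hoxb9.

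Genes that differed without overlap were unevenly placed on the chromosomes, by RefSeq's assignment of gene symbols. Of 875 tested genes on chromosome 1, 116 were higher in the neuronal-high set (13.3%), with a median log2 fold change of 0.33. The median level of this chromosome's genes, against each gene's median over the RP libraries, was -0.64 in T4 and between -0.02 and 0.20 in the other RP libraries. T4 alone stood low, and T6 and T7 lay at 0.00 and -0.02. T4 was about as low on chromosomes 8 (-0.63) and 18 (-0.55), where 2.39% and 2.72% of genes were higher without overlap. Of 611 genes on chromosome 15, 56 were lower (9.17%), with a median of -0.33, and its level was 0.35 in T6, 0.17 in T4 and between -0.23 and 0.00 in the other libraries. Kif1a, Plxna2, Prox1 and Fmod are on chromosome 1, and Fmod was high in T4.

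The RPC tumours, which the division did not use, allowed a test. In these 7 libraries the score ran from -0.34 to 1.06, and each gene was fitted against it with edgeR. The slope is the log2 change per unit of score. Of 15210 genes tested, 0 passed an adjusted p of 0.05 (lowest 0.228), 1959 had an unadjusted p under 0.05 (12.9%), limma-voom called 0 and DESeq2 1002 (6.59%). Of the 571 genes higher without overlap in neuronal-high RP tumours, 564 were tested here and 407 had a positive slope (72.2%), against 49.8% of all 14793 genes tested in both. Of the 558 lower genes 519 were tested and 395 had a negative slope (76.1%), against 50.2% of all. RPC tumours 3, 5 and 6 stood apart, however: their macrophage markers summed to 5.1 to 8.6 CPM, against 503 to 2105 CPM in the other RPC libraries, and tumour 5 had the highest score. Without these 3 libraries the shares were 56.0% (47.7% of all genes) and 65.4% (52.3%), and with a term for non-tumour markers they were 58.5% (50.2%) and 54.5% (49.8%). All 4 shares were thus nearer to those of all genes than with the 7 libraries and no such term, and the part of other cell types in them was not tested further.

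Single genes followed the RP division to differing degrees. In RPC tumours 9 of the 12 higher genes had a positive slope and 8 of the 12 lower genes a negative one. Without RPC tumours 3, 5 and 6 these were 7 of 11 and 5 of 10, with the median slope of the lower genes at 0.22, and with the non-tumour term they were 8 of 12 and 7 of 12. Over all 15210 tested genes, 49.8% had a positive slope. The neuronal cytoskeleton list had positive slopes for 37 of 41 genes (median 0.86). Its genes are close in kind to the markers of the score, so this direction is not independent of the score. Cell cycle genes had positive slopes for 38 of 40 (median 0.43). Cholesterol and fatty acid synthesis genes, with 13 of 25 positive in RP tumours (median 0.14, and negative in 3 alternatives), had positive slopes for 23 of 25 (median 1.31). Their mean level, as the log2 difference from the RP mean, was 0.56, 1.18 and 0.87 in RPC tumours 3, 5 and 6. In the other RPC libraries it was between -0.31 and -0.06. The cell cycle list was at 0.39, 0.49 and 0.63 in the same tumours and between -0.13 and 0.10 in the others. The fit without RPC tumours 3, 5 and 6 was not summarised for these lists, so the part of these libraries in both slopes is not given. Slopes were positive for 0 of 27 class I and interferon genes (median -3.79), beside the low non-tumour markers of RPC tumours 3, 5 and 6. For epithelial identity genes, 6 of 44 slopes were positive (median -2.05). The mean level of the epithelial list was -5.22 in RPC tumour 5 and between -1.39 and -0.57 in the other RPC libraries. Synaptic vesicle genes, also close in kind to markers of the score, had positive slopes for 27 of 34 (median 0.55). Kif1a had a slope of 0.86 (SE 0.36, edgeR adjusted p = 0.376) and Dbn1 of 1.44 (SE 0.82, edgeR adjusted p = 0.489). Dll3 had a slope of 0.17 (SE 0.97), Hoxb9 of -3.90 (SE 7.02) and Meg3 of -5.49 (SE 2.71). For Meg3 and Hoxb9 the sign was thus opposite to that in RP tumours, and none of these slopes passed the test.

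The genes with the smallest p in the RPC fit are given here beside their RP values. Nr2f2, an orphan nuclear receptor, was at 26.4, 36.0, 47.5, 57.0, 160.2, 68.4 and 49.1 CPM in RPC tumours 1 to 7 (slope 1.77, SE 0.20, edgeR adjusted p = 0.228). In RP tumours it overlapped, at 88.3, 46.4, 36.7 and 65.7 CPM against 44.1, 43.3 and 63.8 CPM. Nrxn2, a presynaptic adhesion gene, had a slope of 1.95 (SE 0.25, edgeR adjusted p = 0.228) and an RP fold change of 0.32. Cer1, a secreted antagonist of BMP and Nodal, had a negative slope of -2.72 (SE 0.43, edgeR adjusted p = 0.228), yet in RP tumours it was higher without overlap in the neuronal-high set, at 17.4, 15.9, 213 and 57.3 CPM against 7.81, 7.62 and 8.49 CPM (3.26, SE 0.93). Of the 12 genes named by this fit, Cer1 was the only one whose RP sets did not overlap. Among all tested genes, 3.75% were higher and 3.66% lower without overlap, so nothing is read from this count.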

How the data were processed

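Per the labels' protocols, polyadenylated RNA from TRIzol lysates was made into NEBNext Ultra libraries. The authors deposited raw read counts per gene symbol, 1 file per tumour. The submitters' processing notes name bcl2fastq 1.8.2, TopHat2 2.0.12, HTSeq 0.6.1 and mm9; their settings and the strand are unknown here, so overlapping antisense genes cannot be told apart. Rows that name no gene were left out (in RP libraries, 15.1% to 20.5% of counts in no annotated gene). RP libraries held 10965714 to 23678648 counts in genes; no RP pair was a repeated library (chi-square per degree of freedom at least 59.2 over 21 pairs).

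Counts were fitted with edgeR 4.0.16 in R 4.3.3 (filterByExpr with minimum count 10 and minimum total 15, TMM, quasi-likelihood, Benjamini-Hochberg adjustment at 0.05), on the 7 RP libraries (neuronal-high minus neuronal-low) and, separately, on the 7 RPC libraries with the score as covariate. DESeq2 1.42.0, limma 3.58.1 (voom), other scalings and filters, a term for non-tumour markers, omission of each library in turn and thinning to equal depth were alternatives; the last was chosen after the depth gap was seen. Printed CPM are scaled by TMM, except in the score. SE is the log2 fold change divided by the root of F. The fits were tested on simulated data.

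Genes were named by a rule: per direction, the 12 smallest p among genes that differed by 1 or more on the log2 scale, did not overlap and reached 5 CPM on average in the higher set; 19 fixed genes, 1 of them not reported here; up to 4 per list; and 6 per direction in the RPC fit. No gene passed the adjusted p that the rule asks for first, so its fallback without it was used. Other genes without overlap, Hoxb, imprinted and Thbs4 values were chosen after they were seen. The members, the 16 pathway lists and the 18 cell type lists were chosen with earlier results of these data known. Of 713 list entries, 4 did not match a symbol in the files; Mtap2 stands for Map2.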

Additional observations from a re-analysis of the deposited data

Results flagged for a closer look

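Within groups of 4 or 7 libraries, the highest or lowest library was checked for a gap that was large against the range of the group, which chance gives in about 1 of 20 groups; 11 of 94 groups were marked. In the neuronal-high set, Fam131b was lowest in T3 at 39.1 CPM, Meg3 was lowest in T5 at 7.49 CPM and Plxna2 was lowest in T5 at 137 CPM. All 3 were above every neuronal-low library, which the rule that named them requires. Myc stood apart in T3 at 654 CPM, both in the neuronal-high set and among all RP libraries. Mycn stood apart in T5 at 522 CPM among the RP libraries. T2 stood apart for Mycl1, at 12.6 CPM among the RP libraries, and for Nfib, at 53.9 CPM in both groups. T2 was also the shallowest neuronal-high library, at 10965714 counts in genes. T3 had the highest share of counts between overlapping genes among the RP libraries, at 1.09%.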

How the results depend on the processing

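The count of genes past an adjusted p of 0.05 between the RP sets was 0 with edgeR and 123 with DESeq2, and ranged from 0 to 3 when each library was left out (3 without T5, 2 without T7). The count of slopes called in RPC tumours was 0 with edgeR and 1002 with DESeq2; the cause was not tested. Thinning to equal depth, other scalings, other filters, limma-voom and the term for non-tumour markers gave 0 calls in both comparisons. When each RP library was left out, the difference in the share of counts between overlapping genes ranged from -0.0033 to 0.0625 percentage points, and that in reads with more than 1 alignment from -0.0205 to 0.605 (-0.018 without T1), so both reversed; the cause was not tested. The difference in log2 depth ranged from -0.83 to -0.54. No paired analysis was possible because the RP sets share no tumour numbers, and the RPC fit has no groups. With 4 libraries against 3, chosen by their own expression, the fold changes describe these tumours only, and genes with a few counts per library are limited by depth.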
